A study of Mus musculus with 12 samples.

Results

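In bulk liver RNA of mice, 10 genes that mark macrophages were measured: *Clec4f*, *Cd5l*, *Vsig4*, *Marco* and *Timd4*, which mark the resident macrophages of the liver (Kupffer cells), and *Adgre1*, *Cd68*, *Csf1r*, *C1qa* and *Lyz2*, which macrophages share in general. The genes were chosen by name, with no threshold on their values but with earlier results of these data known. They are 10 of the 48526 genes in the deposited table of reads scaled to library size (CPM). All 10 were among the 11968 genes that exceeded 1 CPM in 6 livers or more, on which every test below was run. The livers came from young adult female and male C57BL/6J mice, an inbred strain, that ate the same chow for 4 weeks, either plain or with simvastatin, an inhibitor of the rate-limiting enzyme of cholesterol synthesis. Each of the 4 groups (chow-fed females, statin-treated females, chow-fed males, statin-treated males) had 3 livers, 12 in all, and no group carried an engineered allele. The sample labels give the simvastatin dose as 0.1 g per kg of body weight, and the study's methods give the same figure per kg of food. The question here was whether statin changed the share of liver RNA that macrophages contribute, in either sex.

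Kupffer cells line the sinusoids of the liver, where they take up bacteria, complement-coated particles, lipoproteins and dying red cells from the blood. They depend on the receptor CSF1R, whose ligands are CSF1 and IL34, and on myeloid transcription factors such as PU.1 (encoded by *Spi1*). In whole liver RNA, which is mostly hepatocyte RNA, their markers stand in for the cells as a share of all RNA. A lower share can mean, among other things, fewer macrophages or less of that RNA per macrophage. These readings cannot be told apart in bulk samples.

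Depth was between 46066381 and 60419223 counted reads per liver, so that 3 reads correspond to 0.0497 to 0.0651 CPM. The study's methods state a lower mean depth than these totals of the deposited counts, and the totals are used here. Levels below are TMM-normalized CPM (CPM scaled by a trimmed mean of log ratios between libraries, with factors of 0.924 to 1.05). The least abundant marker, *Marco*, had 159 to 701 reads per liver, and the other 9 had at least 331. P-values measure the spread between these livers, 3 per group.

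The promoter sequences of 3 markers are shown as examples with 2, 1 and 0 matches to the PU.1 core motif GAGGAA, which was searched on both strands and contains GGAA, the core shared by all ETS factors. They are the 250 bases before the start of each gene in RefSeq (build GRCm38.p6), written 5′ to 3′ on the gene's own strand, with matches in capitals. They lie at chrX:96293439-96293688 (minus strand, *Vsig4*), chr11:69666171-69666420 (minus strand, *Cd68*) and chr11:46810549-46810798 (plus strand, *Timd4*).
Vsig4: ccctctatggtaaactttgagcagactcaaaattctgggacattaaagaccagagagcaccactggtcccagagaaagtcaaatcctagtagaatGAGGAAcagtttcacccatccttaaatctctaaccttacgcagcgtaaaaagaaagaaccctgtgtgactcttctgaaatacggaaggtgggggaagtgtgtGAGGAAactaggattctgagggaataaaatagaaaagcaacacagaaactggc
Cd68: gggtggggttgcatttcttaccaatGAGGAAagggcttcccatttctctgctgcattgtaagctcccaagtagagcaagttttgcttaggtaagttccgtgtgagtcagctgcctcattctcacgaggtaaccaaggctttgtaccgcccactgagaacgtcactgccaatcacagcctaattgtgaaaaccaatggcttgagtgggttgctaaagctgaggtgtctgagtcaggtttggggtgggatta
Timd4: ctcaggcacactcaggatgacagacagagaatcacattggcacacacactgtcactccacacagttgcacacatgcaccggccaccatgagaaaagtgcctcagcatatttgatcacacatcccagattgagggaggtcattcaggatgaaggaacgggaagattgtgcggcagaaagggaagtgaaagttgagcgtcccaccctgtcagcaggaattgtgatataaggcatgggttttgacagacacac
*Vsig4* held 2 matches, which begin at positions -155 and -53 counted from the gene's start, *Cd68* held 1, at -225, and *Timd4* held none in this window. RefSeq windows were at hand for 7 of the 10 genes (all but *Adgre1*, *Csf1r* and *C1qa*), and 4 of these 7 held the motif (*Cd5l*, *Vsig4*, *Marco* and *Cd68*). It was held by 23.3% of all 32851 windows of this length, and by 25.4% of the 9342 tested genes with a window. The log2 difference between females and males on chow, given further on, was 1.00 for *Vsig4*, with 2 matches. It was 0.83 for *Cd5l*, 0.80 for *Cd68* and 0.31 for *Marco*, with 1 match each, and 0.93 for *Clec4f*, 0.69 for *Timd4* and 0.52 for *Lyz2*, with none. The match is a description of these letters, not evidence of a binding site.

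Per kilobase of exon, the markers spanned a wide range of levels. The mean over the 12 livers was highest for *Cd5l*, a protein that macrophages secrete into plasma, at 72.7 TMM-normalized CPM per kb, followed by *Lyz2* at 69.8, *Clec4f* at 58.4 and *C1qa* at 58.2. *Vsig4* came next at 29.2, then *Csf1r* at 13.6, *Cd68* at 10.97, *Adgre1* at 8.45, *Timd4* at 5.03 and *Marco* at 3.25. The ranges over the 12 livers overlapped for every pair of neighbours in this order. Within livers the order was fixed for 5 of the 9 neighbouring pairs, from *C1qa* over *Vsig4* in 12 of 12 livers to *Timd4* over *Marco* in 12 of 12, whereas *Cd5l* exceeded *Lyz2* in 6 of 12 and *Clec4f* exceeded *C1qa* in 5 of 12. By group means *Cd5l* lay above *Lyz2* in both female groups and below it in both male groups (52.1 against 55.2 on chow and 47.9 against 54.3 on statin).

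Among the resident markers, *Clec4f* (chromosome 6, 83644542 to 83656187, GRCm38), a lectin found on mouse Kupffer cells that binds desialylated glycoproteins, had 162, 190.3 and 212 TMM-normalized CPM in chow-fed females (replicates 1, 2 and 3), 259, 180.0 and 160.3 in statin-treated females, 91.9, 119 and 86.4 in chow-fed males and 77.7, 105 and 87.8 in statin-treated males. All 6 female livers lay above all 6 male livers, and within each sex the statin and chow livers overlapped. *Cd5l* (chromosome 3, 87357881 to 87371073) had 166, 199 and 200.2 in chow-fed females, 254, 218 and 129 in statin-treated females, 83.0, 145 and 89.9 in chow-fed males and 95.1, 112 and 85.6 in statin-treated males. The sexes did not overlap within either diet, but the lowest statin-treated female lay below the highest chow-fed male. *Vsig4* (X chromosome, 96247203 to 96293438), the complement receptor CRIg that captures C3b-coated bacteria, had 51.5, 60.6 and 57.5 in chow-fed females, 78.2, 56.5 and 50.1 in statin-treated females, 25.7, 35.1 and 23.9 in chow-fed males and 24.2, 29.6 and 26.7 in statin-treated males. As for *Clec4f*, all 6 females lay above all 6 males and the diets overlapped within each sex.

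*Timd4* (chromosome 11, 46810800 to 46844332), a receptor for phosphatidylserine on dying cells that marks long-lived resident macrophages, had 12.2, 12.4 and 14.3 in chow-fed females, 17.8, 16.6 and 9.24 in statin-treated females, 6.18, 10.95 and 6.93 in chow-fed males and 7.83, 9.65 and 7.07 in statin-treated males. *Marco* (chromosome 1, 120474538 to 120505024), a scavenger receptor for bacteria, had 8.77, 3.92 and 7.57 in chow-fed females, 8.67, 12.2 and 3.58 in statin-treated females, 3.27, 8.71 and 4.34 in chow-fed males and 5.17, 5.88 and 3.10 in statin-treated males. *Marco* was the most variable marker, with the highest liver 1.90 to 3.41 times the lowest within each group, and its sexes overlapped on both diets.

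Of the markers shared by macrophages in general, *Adgre1* (chromosome 17, 57358691 to 57483527), which encodes the surface antigen F4/80, had 31.6, 34.0 and 37.3 in chow-fed females, 37.7, 46.6 and 25.5 in statin-treated females, 16.5, 27.8 and 19.0 in chow-fed males and 18.9, 17.6 and 15.9 in statin-treated males. *Cd68* (chromosome 11, 69664213 to 69666153), an endosomal and lysosomal glycoprotein, had 17.0, 16.9 and 18.1 in chow-fed females, 18.8, 20.9 and 15.4 in statin-treated females, 7.34, 12.1 and 10.48 in chow-fed males and 9.62, 10.4 and 8.47 in statin-treated males. The sexes separated for both genes within each diet. *C1qa* (chromosome 4, 136895917 to 136898803), 1 of the 3 chains of complement C1q, had 74.3, 74.6 and 84.4 in chow-fed females, 90.9, 88.4 and 63.1 in statin-treated females, 34.1, 54.1 and 39.4 in chow-fed males and 37.6, 47.1 and 38.5 in statin-treated males, with all females above all males.

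*Csf1r* (chromosome 18, 61100598 to 61132149), the receptor on which Kupffer cells depend, had 98.2, 72.2 and 104 in chow-fed females, 80.3, 153 and 79.1 in statin-treated females, 47.4, 85.7 and 63.1 in chow-fed males and 63.2, 53.7 and 39.6 in statin-treated males. *Lyz2* (chromosome 10, 117277331 to 117282321), the lysozyme of macrophages and neutrophils, had 72.5, 117 and 122 in chow-fed females, 172, 85.3 and 100.6 in statin-treated females, 72.0, 86.0 and 60.01 in chow-fed males and 44.4, 83.6 and 86.2 in statin-treated males. On chow, 1 male liver exceeded 1 female liver for each of these genes. Exons of *Csf1r* overlap *Hmgxb3* on the other strand, and how the counting program used strand is not given in the sources used here. *Lyz1*, the near-identical neighbour of *Lyz2*, had 1 to 11 reads per liver.

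**Figure D1:**
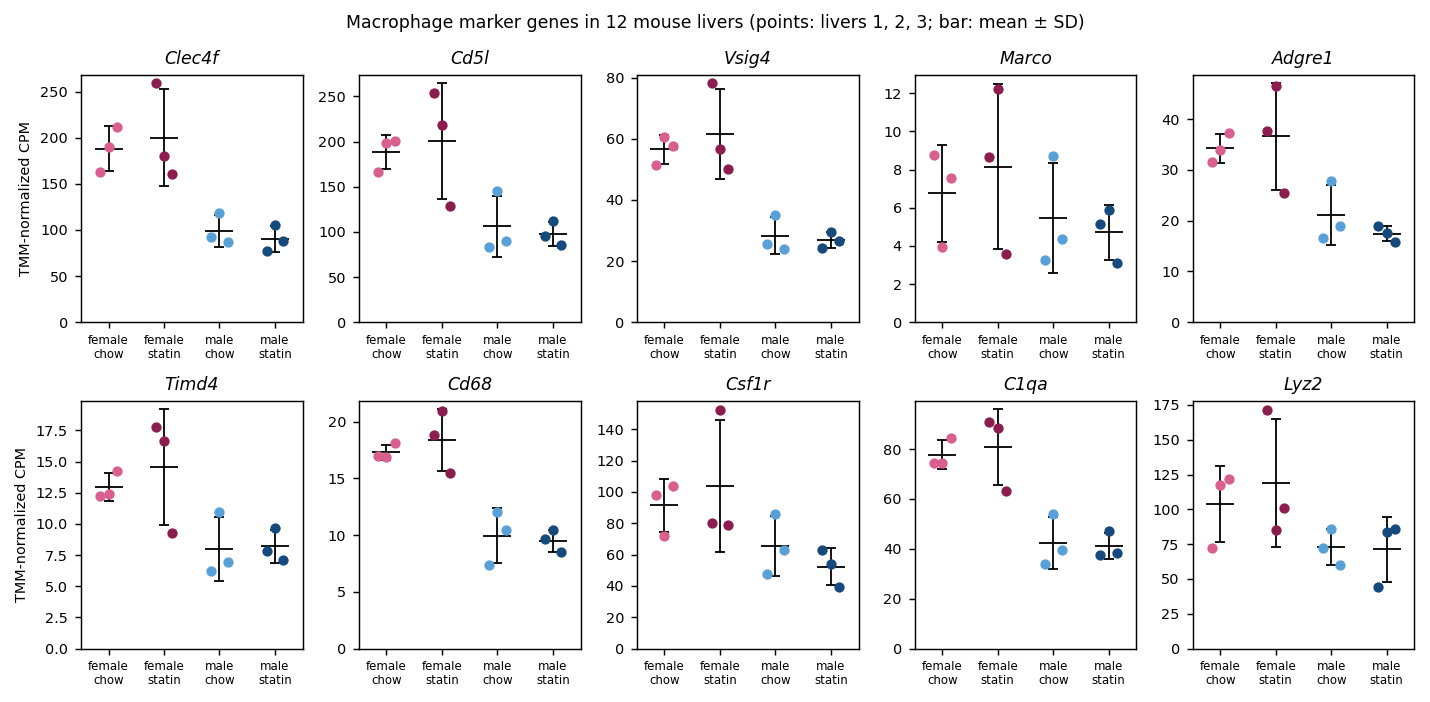
TMM-normalized CPM (vertical axes, starting at 0) of the 10 markers in the 4 groups, with 1 point per liver and the mean and SD of 3 livers as bars. Females sit above males for most genes, and within a sex the statin and chow livers overlap for every gene.

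No macrophage marker changed detectably with statin in females. The difference between statin-treated and chow-fed females ran from 0.06 (*C1qa*) to 0.27 (*Marco*) on the log2 scale, with a median of 0.11 against 0.01 over all 11968 genes. None of the 10 markers passed an adjusted p of 0.05 in edgeR's quasi-likelihood test (adjusted p 0.939 to 0.984), against 12 of all genes, or 0.100%. None had an unadjusted p under 0.05, against 10.5% of all genes, none had statin and chow livers that did not overlap, against 12%, and DESeq2 and limma also called none. The intervals show what this design could miss. For *Cd68*, the most tightly measured marker, the 95% interval of the difference was -0.30 to 0.47, for *Vsig4* -0.27 to 0.52, for *C1qa* -0.35 to 0.46, for *Clec4f* -0.35 to 0.52, and for *Marco* -0.74 to 1.28. In linear terms the interval of *Cd68* ran from 0.815 to 1.38 times the chow level.

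Statin-treated males differed from chow-fed males by -0.33 (*Csf1r*) to 0.03 (*Timd4*) on the log2 scale, with a median of -0.10 against 0.00 over all genes. Again 0 of 10 markers passed the adjusted threshold (adjusted p 1.00 for each), as did 0 genes in all, 0.00%, and 0 of 10 had an unadjusted p under 0.05, against 1.96% of all genes. No marker had statin and chow males apart, against 7.95% of all genes. DESeq2 and limma called no marker. *Vsig4* differed by -0.07 (95% interval -0.47 to 0.33), *Cd68* by -0.07 (-0.45 to 0.32), *Clec4f* by -0.13 (-0.57 to 0.30) and *Adgre1* by -0.27 (-0.75 to 0.21).

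All 10 estimates were above 0 in females, against 52.8% of all genes. In males 9 of 10 were below 0, while 51.0% of all genes were above it. The sexes' responses to statin, compared as an interaction, differed by estimates of 0.11 (*C1qa*) to 0.51 (*Csf1r*) on the log2 scale, with a median of 0.21. No marker passed the adjusted threshold (adjusted p 0.888 to 0.995) and 0 of 10 had an unadjusted p under 0.05, against 0 genes (0.00%) and 8.01% over the whole table. Both signs rested on single livers: without replicate 1 of the statin-treated females their median was -0.01, without replicate 3 it was 0.32, and without replicate 2 of the chow-fed males the male median was 0.11 and the interaction median 0.00.

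**Figure D2:**
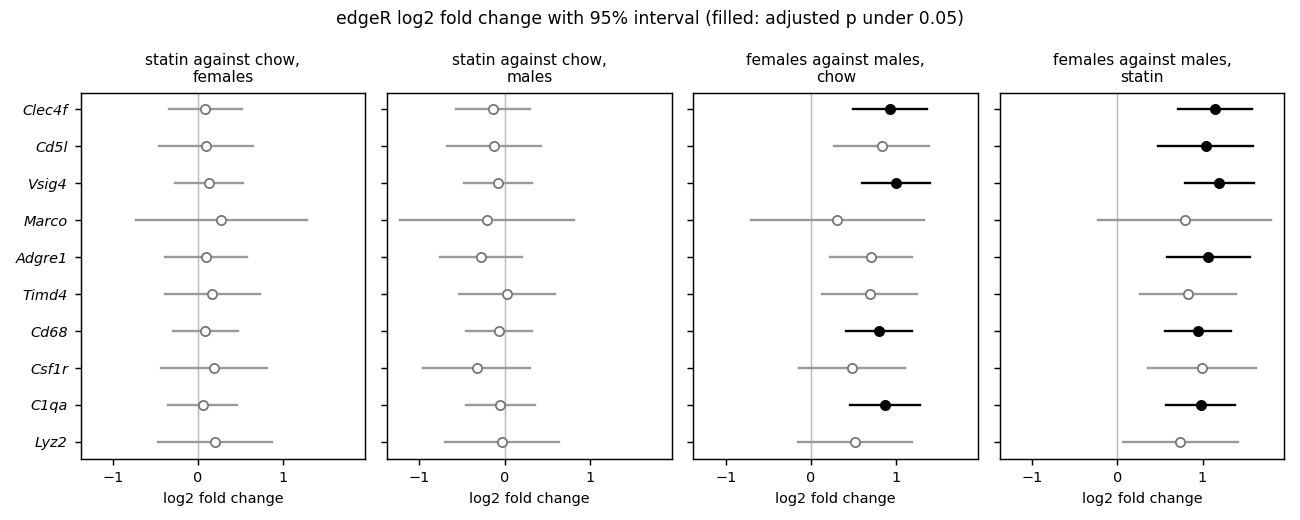
The log2 fold change (horizontal axis) of each marker with its 95% interval, for statin against chow in females and in males and for females against males on each diet, from edgeR. Filled points passed an adjusted p of 0.05; the intervals of both statin comparisons include 0 for all 10 markers, and between the sexes 4 markers passed on chow and 6 on statin.

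Some livers were the highest or the lowest for most macrophage markers at once. Replicate 3 of the statin-treated females was the lowest of its group for 9 of 10 markers and the lowest of all 6 females for 8, while replicate 1 of that group was the highest of all 12 livers for 6 markers and replicate 2 for the other 4. Replicate 2 of the chow-fed males was the highest of its group for 10 of 10 markers and of all 6 males for 9. Summed over the 10 genes, the markers took 0.0661%, 0.0799% and 0.0853% of the reads in chow-fed females, 0.104%, 0.0834% and 0.0586% in statin-treated females, 0.0397%, 0.0611% and 0.0393% in chow-fed males and 0.0383%, 0.0496% and 0.0414% in statin-treated males. The statin-treated females thus spanned a range that holds all 3 chow-fed females, and by share of reads the highest chow-fed male lay above the lowest statin-treated female. On the TMM-normalized scale this order turned: the sums were 584 in that male and 636 in that female, so that all 6 females lay above all 6 males.

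Genes of antigen presentation varied with the same livers. The 5 MHC class II genes (led by *Cd74*, the invariant chain, and *H2-Aa*) summed to 298 TMM-normalized CPM in replicate 2 of the chow-fed males against 91.5 and 101 in the others of that group, and to 129 in replicate 3 of the statin-treated females against 290.1 and 305. None of the 5 was called in any comparison by edgeR, by DESeq2 or by limma, and none had an unadjusted p under 0.05, and their part in the marker levels of these livers was not tested.

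**Figure D3:**
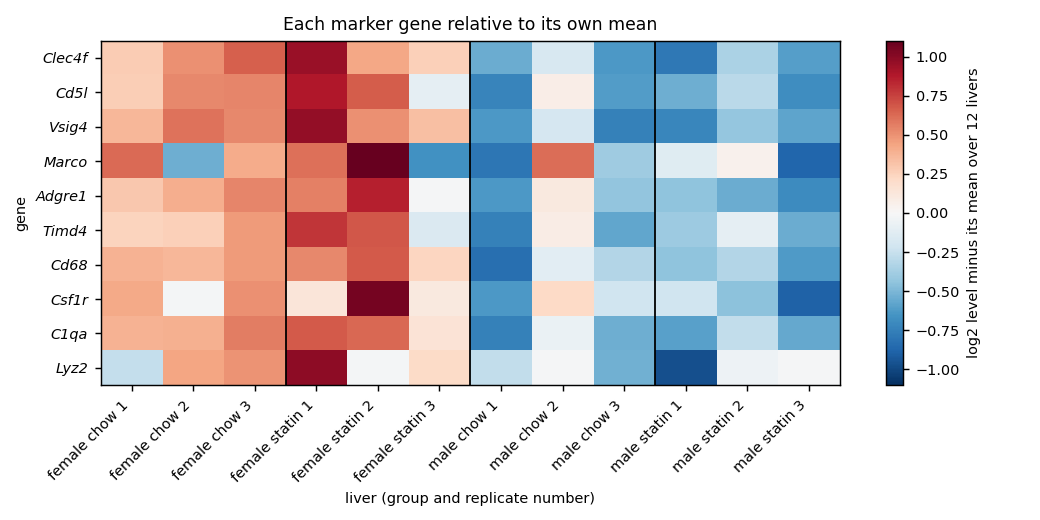
The log2 level of each marker (rows) in each of the 12 livers (columns, in groups of 3) minus its mean over all livers, on a colour scale from blue (lower) to red (higher). Replicate 3 of the statin-treated females is the palest female column, and replicate 2 of the chow-fed males the least blue male column.

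The markers differed between the sexes. On chow, every marker was higher in females by the point estimate, against 48.9% of all genes, with a median of 0.75 on the log2 scale against -0.01 over all genes. The difference passed the adjusted threshold for 4 of 10: *Vsig4* (log2 difference 1.00 ± 0.19 SE, 2.00-fold, 95% interval 1.51 to 2.65, adjusted p = 0.00502), *Clec4f* (0.93 ± 0.20, 1.90-fold, adjusted p = 0.0124), *C1qa* (0.87 ± 0.19, 1.83-fold, adjusted p = 0.0118) and *Cd68* (0.80 ± 0.18, 1.74-fold, adjusted p = 0.0141). Over all genes, 10.4% passed in either direction and 5.96% were higher in females.

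The other 6 markers did not pass on chow. *Cd5l* differed by 0.83 (adjusted p = 0.0597), *Adgre1* by 0.70 (adjusted p = 0.0651), *Timd4* by 0.69 (adjusted p = 0.114), *Lyz2* by 0.52 and *Csf1r* by 0.48 (adjusted p = 0.332 for both), and *Marco* by 0.31 (95% interval -0.71 to 1.32, adjusted p = 0.740). At an unadjusted p under 0.05 there were 7 of 10 markers, against 24.9% of all genes, and for 7 of 10 all chow-fed females lay above all chow-fed males, against 18.5%. Replicate 2 of the chow-fed males bore on these values: without it 7 of 10 were called and the median difference was 0.97. Without replicate 1 or without replicate 3 of that group 2 were called, *Vsig4* and *Cd68*. Leaving out a statin-treated female, which is in neither group of this comparison but in the same fit, gave 5 or 6 calls, with *Cd5l*, *Adgre1* or both added.

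On statin, in 6 other livers, females again had the higher estimates for all 10 markers, against 47.9% of all genes, with a median of 0.99 against -0.01 over all genes. The 4 genes called on chow were called here too: *Vsig4* differed by 1.20 ± 0.19 SE (2.30-fold, 95% interval 1.73 to 3.04, adjusted p = 0.00221), *Clec4f* by 1.15 ± 0.20 (2.21-fold, adjusted p = 0.00523), *Cd68* by 0.95 ± 0.18 (1.93-fold, adjusted p = 0.00773) and *C1qa* by 0.98 ± 0.19 (1.97-fold, adjusted p = 0.00860). *Adgre1* (1.07 ± 0.22, 2.10-fold, adjusted p = 0.0142) and *Cd5l* (1.04 ± 0.26, 2.05-fold, adjusted p = 0.0319) joined them, which makes 6 of 10, against 6.28% of all genes in either direction and 4.38% higher in females. *Csf1r* differed by 1.00 (adjusted p = 0.0656), *Timd4* by 0.83 (adjusted p = 0.0837), *Lyz2* by 0.74 (adjusted p = 0.204) and *Marco* by 0.79 (adjusted p = 0.409).

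At an unadjusted p under 0.05 there were 9 of 10 markers on statin, all but *Marco*, against 19.4% of all genes, and for 7 of 10 the sexes did not overlap, against 11.1%. The call of *Cd5l* rested on 6 of the 12 livers: it was not called when any 1 of the 3 statin-treated males, replicate 1 or 2 of the statin-treated females or replicate 2 of the chow-fed females was left out (adjusted p 0.0503 to 0.110). Without replicate 2 or replicate 3 of the statin-treated males *Adgre1* was lost as well, which left 4 of 10, whereas without replicate 3 of the statin-treated females *Timd4* and *Csf1r* passed and 8 of 10 were called. Called on both diets were 4 of 10 markers, against 2.42% of all genes, and the same 4 (*Clec4f*, *Vsig4*, *Cd68* and *C1qa*) had all 6 females above all 6 males, against 5.16%. More markers passed on statin than on chow, but the interaction given above, which tests that difference, called none.

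*Vsig4* is the one marker on the X chromosome. Of 345 X-linked genes tested, 11.3% were higher in females on chow and 8.70% on statin, with a median difference of 0.11 and 0.05 on the log2 scale, against 1.00 and 1.20 for *Vsig4*. The other 9 markers are autosomal.

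Other genes of the same cells were counted from lists chosen by name, with earlier results of these data known. Among 9 further Kupffer cell genes, 3 were higher in females on both diets, against the 2.42% of all genes given above: *Il18bp*, which encodes a binding protein for interleukin 18 (1.27 on chow, adjusted p = 0.000434, and 1.18 on statin, adjusted p = 0.000921), *Folr2*, a folate receptor (0.88, adjusted p = 0.0338, and 1.07, adjusted p = 0.0185), and *Fcna*, ficolin A (0.58, adjusted p = 0.0376, and 0.67, adjusted p = 0.0277). The list was not uniform. *Slc40a1*, the iron exporter ferroportin, which hepatocytes also make, was lower in females on chow (-0.56, adjusted p = 0.0312, a call lost without any 1 of the 3 chow-fed females or replicate 1 or 2 of the chow-fed males) and differed by 0.11 on statin (adjusted p = 0.782), and *Nr1h3*, which encodes the oxysterol receptor LXRα, differed by 0.12 and 0.16 (adjusted p = 0.756 and 0.743). With 1 liver left out, 1 to 4 genes of this list were called higher on chow and 1 to 3 on statin. Of these 12 fits, *Il18bp* was called in all 12 on both diets, *Folr2* in 7 on chow and 8 on statin, and *Fcna* in 6 and 7. Of the partner chains of *C1qa*, *C1qb* was higher in females by 0.80 on chow (adjusted p = 0.0205) and 0.89 on statin (adjusted p = 0.0169), and *C1qc* by 0.79 (adjusted p = 0.0159) and 0.99 (adjusted p = 0.00673). Neither chain was called on chow without replicate 3 of the chow-fed females or without replicate 1 or 3 of the chow-fed males, and 1 or 2 were called on statin with 1 liver left out.

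Of 13 general phagocyte genes tested, all 13 estimates were above 0 on both diets, against 48.9% and 47.9% of all genes, with medians of 0.71 and 0.94. Called were 3 on chow (*Fcgr1*, *Ctss* and *Cd14*) and 7 on statin (these 3 and *Cybb*, *Laptm5*, *Msr1* and *Ptprc*), against 5.96% and 4.38% of all genes higher in females. These counts ranged from 1 to 7 on chow and from 4 to 8 on statin with 1 liver left out: *Cd14* alone was called on chow without replicate 2 or 3 of the chow-fed females or replicate 1 or 3 of the chow-fed males, and 7 genes were without replicate 2 of the statin-treated females. *Cd14*, the co-receptor for lipopolysaccharide, differed most in both, by 1.37 (adjusted p = 0.00238) and 1.54 (adjusted p = 0.00142). *Mpeg1*, the pore-forming perforin-2 and the most abundant gene of this list, was not called (0.61, adjusted p = 0.136, and 0.56, adjusted p = 0.222). *Ctss*, a lysosomal protease, differed by 0.74 (adjusted p = 0.0386) and 0.84 (adjusted p = 0.0317). On statin, of 12 fits that each left out 1 liver, *Fcgr1* was called in 2, *Laptm5* in 3 and *Ctss* in 6. *Cybb*, *Msr1*, *Ptprc* and *Cd14* were called in all 12. Limma did not call *Laptm5*.

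Of the 7 ligand and transcription factor genes around CSF1R, 1 was called on each diet, near the share of all genes (10.4% on chow and 6.28% on statin), and 0 to 2 were called on either diet with 1 liver left out. *Il34*, a ligand of the receptor, was higher in females on chow, with 4.27 to 4.56 TMM-normalized CPM against 1.42 to 1.99 in males (1.40, adjusted p = 0.0198, a call lost without replicate 1 or 2 of the chow-fed females or of the chow-fed males), and differed by 0.72 on statin (adjusted p = 0.262). *Spi1* was higher on statin (0.95, adjusted p = 0.0392, a call kept in 3 of 12 fits that each left out 1 liver), with 0.55 on chow (adjusted p = 0.184). *Csf1*, the other ligand, differed by 0.36 on chow (adjusted p = 0.499) and 1.07 on statin (adjusted p = 0.0526). *Cebpb*, 1 of the 2 most abundant genes of the list, was not called on either diet (-0.16, adjusted p = 0.771, and 0.15, adjusted p = 0.853).

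**Figure D4:**
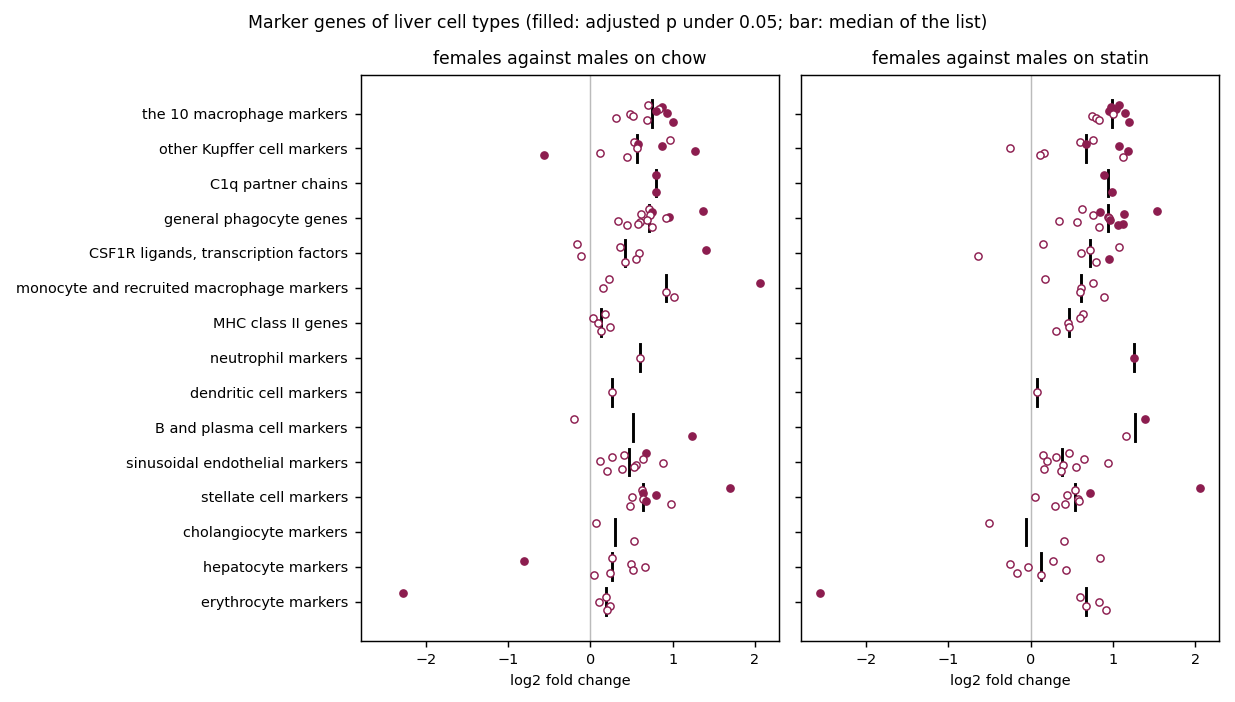
The log2 fold change of females against males (horizontal axis) for each tested gene of the marker lists, on chow (left) and on statin (right), with 1 point per gene, filled where the adjusted p was under 0.05, and a bar at the list's median. The 10 macrophage markers have medians of 0.75 and 0.99, stellate cell markers 0.64 and 0.54, and hepatocyte markers 0.27 and 0.12.

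Some markers of other liver cells were also called between the sexes. All 9 stellate cell markers had estimates above 0 on both diets, against 48.9% and 47.9% of all genes. Called were 4 on chow (*Lrat*, *Dcn*, *Colec11* and *Acta2*) and 2 on statin (*Colec11* and *Acta2*), against 5.96% and 4.38% of all genes higher in females. With 1 liver left out the counts ranged from 1 to 6 on chow, where *Dcn* alone was called without replicate 1 or 2 of the chow-fed females or replicate 1 or 3 of the chow-fed males, and from 0 (without replicate 2 of the statin-treated males) to 2 on statin. Their summed level was 474 to 549 TMM-normalized CPM in chow-fed females, 366 to 577 in statin-treated females, 314 to 328 in chow-fed males and 278 to 397 in statin-treated males, led by *Dcn*, the matrix proteoglycan decorin (0.80 on chow, adjusted p = 0.00345), and *Ecm1* (0.64, adjusted p = 0.136). All 10 sinusoidal endothelial markers were likewise above 0, with medians of 0.47 and 0.38. On chow 1 was called (*Clec4g*, 0.67, adjusted p = 0.00567), near the share of all genes (10.4%, and 5.96% higher in females). On statin edgeR called 0, against 6.28% of all genes. There 4 had an unadjusted p under 0.05, against 19.4%, and the other settings and tools called 0 to 2. They summed to 499 to 544, 389 to 600.4, 323 to 445 and 338 to 483 in the same order of groups, with *Dnase1l3* and *Clec4g* the most abundant. The part of these cells in the difference of the macrophage markers was not tested.

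The 10 markers of monocytes and recruited macrophages summed to 60.8 to 86.4 TMM-normalized CPM in chow-fed females, 34.5 to 87.8 in statin-treated females, 19.98 to 26.4 in chow-fed males and 22.4 to 44.0 in statin-treated males, and *Cd9*, a tetraspanin that many cell types make, was their most abundant gene. *Cd9* was 2.06 higher in chow-fed females on the log2 scale (adjusted p = 0.00532) and not called on statin (0.75, adjusted p = 0.30). *Ly6c2*, the defining marker of classical monocytes, had at most 0.557 TMM-normalized CPM in any liver, 5 of the 10 averaged under 1, and *Ccr2* and *Plac8* (4.82 to 22.03 over all livers) were not called. Neutrophil markers summed to 2.93 to 9.94 over all livers, with *Ly6g* at 0 in 10 of 12, and 1 was tested, *Csf3r*, which was called on statin (1.26, adjusted p = 0.00331) but not on chow (0.61, adjusted p = 0.0803). Of the B and plasma cell markers *Ighm* was called on chow (1.23, adjusted p = 0.0353) and *Cd79b* on statin (1.39, adjusted p = 0.0258), in a summed level of 6.21 to 23.0. Each of these calls was kept in 7 of 12 fits that left out 1 liver: that of *Ighm* was lost without replicate 1 or 2 of the chow-fed females or any chow-fed male, and that of *Cd79b* without replicate 1 or 2 of the statin-treated females or any statin-treated male. T and NK cell markers (summed level 2.5 to 10.03, 0 of 8 tested) and dendritic cell markers (1.39 to 3.90, 1 of 5 tested, *Clec9a*, not called) were near the filter, and no listed gene was at 0 in all livers. The part of these cells in the marker levels was not tested.

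Hepatocyte and red cell markers gave the background of the tissue. Of 7 hepatocyte genes, 1 was called on chow, near the share of all genes (10.4%). It was *Apoa1* (-0.81, adjusted p = 0.0136, a call lost without replicate 1 or 3 of the chow-fed males and with an offset for transcript length). On statin edgeR called 0, against 6.28% of all genes. There 1 had an unadjusted p under 0.05, against 19.4%, and the other settings called 0 or 1. *Alb*, albumin, differed by 0.27 on chow (adjusted p = 0.547) and 0.85 on statin (adjusted p = 0.0582). Both cholangiocyte genes tested, *Spp1* and *Sox9*, were not called. Of the 5 red cell genes the 4 globins were not called by edgeR on either diet, and the other settings called up to 2 of them higher in females on statin, by DESeq2 among others (led by *Hbb-bs*, 0.23 on chow, adjusted p = 0.701, and 0.67 on statin, adjusted p = 0.262), while *Alas2*, the erythroid form of the first enzyme of heme synthesis, was lower in females by both comparisons (-2.28, adjusted p = 5.06e-05, and -2.56, adjusted p = 1.76e-05). For statin, edgeR called 0 of the 78 list genes tested in females and in males, as did DESeq2 and limma. At an unadjusted p under 0.05 there were 6 and 4 genes, against 10.5% and 1.96% of all genes. For the interaction edgeR and limma called 0 and DESeq2 1, with 7 at an unadjusted p under 0.05, against 8.01% of all genes.

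Profiles over the 12 livers were compared with the mean profile of the markers. By the root mean square difference of log2 levels, each centred on its own mean, the 4 nearest of 862 genes with at least the variation of that profile were *C1qc* (0.09), *C1qb* (0.11), *Cd44* (0.12) and *Cybb* (0.12). *C1qb* and *C1qc* encode the partners of *C1qa*, *Cybb* the catalytic subunit of the phagocyte NADPH oxidase and *Cd44* a hyaluronan receptor. Of the markers themselves, *C1qa* lay nearest to their mean profile (0.07), followed by *Timd4* (0.10), and *Marco* (0.37), *Lyz2* (0.36) and *Csf1r* (0.27) lay farthest.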

How the data were processed

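Bulk liver RNA was measured in 12 livers, 3 in each of 4 groups. The authors' libraries were strand-specific poly(A) libraries, and the submitters' processing notes name STAR 2.4.1a, HTSeq, edgeR 3.28.1 and the build GRCm38. The authors deposited CPM values for 48526 genes, each count divided by the liver's total, and a table of 11968 genes above 1 CPM in at least 6 livers. Its description names TMM normalization, but its deposited values are raw counts: they are whole, and none (0) departs from the reads that the CPM values imply (100% whole within 0.05 reads). All columns were used. Symbols and positions come from GENCODE vM21 (99.9% of tested genes matched), promoters from RefSeq.

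Counts were fitted with edgeR 4.0.16 (quasi-likelihood, TMM, common dispersion 0.0380, all 12 livers in one fit, no covariate) under R 4.3.3, in place of a test for normalized values. Tests were two-sided with Benjamini-Hochberg adjustment over all 11968 genes, and a gene was called at an adjusted p under 0.05. Intervals use the standard error from the F statistic. Depth was 46066381 to 60419223 reads. Statin was compared with chow within each sex, females with males within each diet, and the interaction was tested. The members and the 15 marker lists (110 genes, of which 109 matched a symbol and 78 were tested) were chosen with earlier results of these data known. Named were all members, of each list its 2 most abundant tested genes and those called, and the 5 nearest profiles; 2 genes under this rule are not reported here. The methods were tested on simulated counts.

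Alternatives were DESeq2 1.42.0, limma 3.58.1 on log2(CPM + 1) and log2(CPM + 0.1), library size alone, DESeq2 size factors, an offset for transcript length, no filter, a filter at 5 CPM, each sex alone, the replicate number as a block, and leaving out each liver. Same-numbered livers are different mice. Their deviations from the group means correlated at -0.0917 on average over 18 pairs, against 0.0479 over 36 other pairs. Deviations cancel within each group, which ties these means to each other, so they cannot show whether the numbers mark a shared batch. Tables were handled with pandas 2.3.3 and numpy 2.4.6 under Python 3.11.15, intervals with scipy 1.17.1, and plots with matplotlib 3.10.9.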

Additional observations from a re-analysis of the deposited data

How the results depend on the processing

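No macrophage marker was called for statin in females, in males or for the interaction under any alternative, and between the sexes every marker kept its direction under every alternative. The markers called ranged from 3 to 6 of 10 on chow and 5 to 8 on statin over the alternatives with all livers, and from 2 to 7 and 4 to 8 when each liver was left out in turn. *Cd68* was not called on chow with the length offset, and *Cd5l* not on statin with library size alone; the cause was not tested. Called in every fit, those without 1 liver included, were *Vsig4* on both diets and *Clec4f*, *C1qa* and *Cd68* on statin. The direction of the statin estimates was less stable. Leaving out 1 liver turned 9 in females, with ranges on the log2 scale of -0.14 to 0.24 (*Clec4f*), -0.11 to 0.34 (*Cd5l*), -0.076 to 0.27 (*Vsig4*), -0.14 to 0.64 (*Marco*), -0.12 to 0.31 (*Adgre1*), -0.016 to 0.21 (*Cd68*), -0.20 to 0.37 (*Csf1r*), -0.028 to 0.22 (*C1qa*) and -0.16 to 0.39 (*Lyz2*). It turned 8 in males: -0.26 to 0.017 (*Clec4f*), -0.27 to 0.17 (*Cd5l*), -0.18 to 0.11 (*Vsig4*), -0.47 to 0.31 (*Marco*), -0.13 to 0.32 (*Timd4*), -0.25 to 0.094 (*Cd68*), -0.19 to 0.16 (*C1qa*) and -0.18 to 0.22 (*Lyz2*). For the interaction it turned 8: -0.014 to 0.36 (*Clec4f*), -0.085 to 0.45 (*Cd5l*), -0.013 to 0.33 (*Vsig4*), -0.037 to 0.84 (*Marco*), -0.15 to 0.39 (*Timd4*), -0.0072 to 0.33 (*Cd68*), -0.11 to 0.26 (*C1qa*) and -0.14 to 0.40 (*Lyz2*). Over all genes, those called for statin in females numbered 12, against 270 by DESeq2, 148 with no filter, 0 with each sex fitted alone, 5 under a block on the replicate number, and 0 to 75 without 1 liver. For males DESeq2 called 4 against 0, and for the interaction 122, with 103 with no filter and 0 to 14 without 1 liver, against 0. Females against males on chow gave 1250 genes, 1946 by DESeq2 and 635 to 1586 without 1 liver, and on statin 751, 1284 by DESeq2, 500 with the stricter filter and 378 to 743 without 1 liver. The replicate block left the counts of called markers at 0, 0, 0, 4 and 6. Of the 78 other listed genes tested, edgeR called 19 on chow and 18 on statin, against 10.4% and 6.28% of all genes. The alternatives called 6 to 27 and 9 to 30, the highest by DESeq2. With 3 livers per group the intervals of the statin effect reach 0.47 on the log2 scale for the best measured marker, and changes within those intervals could not be told from none at this number of livers.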
